A study of Homo sapiens with 2 samples.

Results

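Death receptors are the members of the tumour necrosis factor (TNF) receptor family whose cytoplasmic part can start apoptosis, and they are described here with the adaptor proteins that bind them. The genes were taken by symbol from the deposited count files: FAS, TNFRSF10A, TNFRSF10B, TNFRSF10D, TNFRSF1A, TNFRSF12A, FADD, TRADD, RIPK1 and CFLAR. They are 10 of the 43424 gene symbols in the files. The rule is by symbol, and earlier results of these data were known when the genes were chosen. Messenger RNA came from Hep3B, an established human hepatocellular carcinoma line described in the labels as wild type. There were 2 libraries: 1 from cells given the solvent dimethyl sulfoxide (DMSO) and 1 from cells treated with GLE, an extract of Glehnia littoralis, a plant of sandy coasts. The titles give the groups, and the other labels, with growth conditions and a treatment tag, are the same for both. The labels list 1 sample per group, and no source used here states the dose or exposure time of the cells that were sequenced. The series asks whether the extract acts on this line and names apoptosis as its interest.

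When a ligand binds FAS or the TRAIL receptors TNFRSF10A and TNFRSF10B, the death domains of the receptor recruit FADD, which brings in the initiator caspase CASP8. CFLAR resembles CASP8 without its enzymatic activity and limits that step. TNFRSF1A, the main receptor for TNF, first binds TRADD and the kinase RIPK1 in a membrane complex that turns on NF-kB, and a later complex with FADD can start cell death. TNFRSF10D binds TRAIL but has a shortened death domain and acts as a decoy. TNFRSF12A, also called Fn14, binds the ligand TWEAK and has no death domain.

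The control library held 5618328 counts and the GLE library 3636351. The share of mitochondrial ribosomal RNA was 8.52% in the control against 13.2% under GLE, with exact 95% Clopper-Pearson intervals of 8.50 to 8.55 and 13.1 to 13.2, and its part in the results was not tested. All 10 hepatocyte and hepatoma markers examined had counts in both libraries, among them ALB and AFP. Levels are in CPM, a count divided by the scaled size of its library in units of 1000000 counts. The markers summed to 15421 CPM in the control and to 12244 CPM under GLE, of which APOA2 made up 7232 CPM and 7146 CPM. By the ratios defined below, 3 of the 10 were at least 2-fold lower under GLE (HNF4A, APOB and FGB). Over all genes with at least 30 counts, 10.5% were. Counting intervals lay below 1 for 8 markers and above 1 for 1, beside 30.1% and 27.7% of all those genes. The endothelial markers VWF, CDH5, KDR, TEK, CLDN5 and EMCN had 0 counts in both libraries, as had the lymphocyte markers CD3E and MS4A1. CD3D had 0 counts in the control and 1 under GLE, and PTPRC 1 and 3. CD68 had 117 and 96 counts, and CD14 37 and 9. The 9 immune markers used summed to 496.5 CPM and 467.2 CPM, of which LYZ made up 469.2 CPM and 435.5 CPM. The 8 fibroblast markers summed to 7.10 CPM in the control library and 21.2 CPM under GLE. They went both ways, as COL1A1 had 4 control and 29 GLE counts and PDGFRA 13 and 0. PECAM1, an endothelial marker, had 36 control counts and 1 GLE count. The part of other cells in the results was not tested.

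The libraries were made with a kit that reads the 3′ end of polyadenylated RNA, so a count marks the end of a transcript, and isoforms with the same end are not told apart. The stretches below show annotated ends, near which such reads would lie, for 6 of the genes. Read positions were not seen, and FAS had 0 counts in both libraries. Each is 30 bases out of the last 50 of 1 coding transcript of GENCODE release 29 on GRCh38, 5′ to 3′. The polyadenylation hexamer (AATAAA or ATTAAA) is in capitals. It starts 38 bases before the end in FADD and TRADD, so their stretches stop short of the transcript end. The other stretches reach it. The transcripts end on chromosome 11 at 70207390 (FADD), chromosome 16 at 3022383 (TNFRSF12A) and 67154180 (TRADD), chromosome 6 at 3115185 (RIPK1), chromosome 2 at 201176687 (CFLAR) and chromosome 10 at 89015785 (FAS).
FADD: ctATTAAAacacagctttacaacttccata
TNFRSF12A: tttattAATAAAagaatctttaactttaaa
TRADD: atAATAAAgtataacacggattttgatgtg
RIPK1: aacactttttaaAATAAAaatttataccac
CFLAR: gcagcATTAAAactgttttactcagaccaa
FAS: aaagtacgtaATTAAAtaatgtttttggta
The TNFRSF1A and TNFRSF10A transcripts chosen by the same rule had neither hexamer in their last 50 bases. In the basic set of GENCODE, FADD has 1 coding transcript with 1 end. Transcripts outside that set were not looked at. CFLAR has 12 coding transcripts with 12 distinct ends in the same set, and its single count pools the long and short forms of the protein.

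With 1 library per group there was no test between conditions, and no p-value is given. For each gene the GLE over control ratio of scaled counts is given with its 95% counting interval, which covers counting error only and treats each read as a separate molecule. Scaling was by TMM, a method that centres on genes of little change. An effect of the extract cannot be told apart from variation between cultures, nor fewer cells with a transcript from less of it per cell. Of the 10 genes, 9 had at least 30 counts over both libraries and are called measured. FAS did not reach that minimum.

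Beyond counting error, 5 of the 9 measured genes were lower in the GLE library, FADD by the largest amount, while TNFRSF10B was higher. FADD was 3.0-fold lower and TNFRSF1A 1.90-fold lower, and TNFRSF10B was 1.71-fold higher. The ratio was below 1 for 7 of the 9 measured genes and above 1 for 2. The counting interval lay below 1 for 5 genes (FADD, TNFRSF1A, TNFRSF10A, TNFRSF12A and CFLAR), above 1 for 1 (TNFRSF10B) and included 1 for 3 (TRADD, RIPK1 and TNFRSF10D). Among all 11068 genes with at least 30 counts, intervals were wholly below 1 for 30.1% and wholly above 1 for 27.7%. The median log2 ratio of the 9 genes was -0.41, and that of all measured genes was -0.04.

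By the size of the difference, 1 of the 9 genes, FADD, was at least 2-fold lower and 0 were at least 2-fold higher. Over all measured genes, a ratio of 0.5 or less was found for 10.5% and a ratio of 2 or more for 9.54%, so a count of 1 in 9 is near the background. The 9 genes had between 111 and 760 counts over both libraries. Of the 5992 genes in that range, 7.84% had a ratio of 0.5 or less and 8.33% a ratio of at least 2. Intervals were wholly below 1 for 30.4% of them and wholly above 1 for 28.7%.

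**Figure D1:**
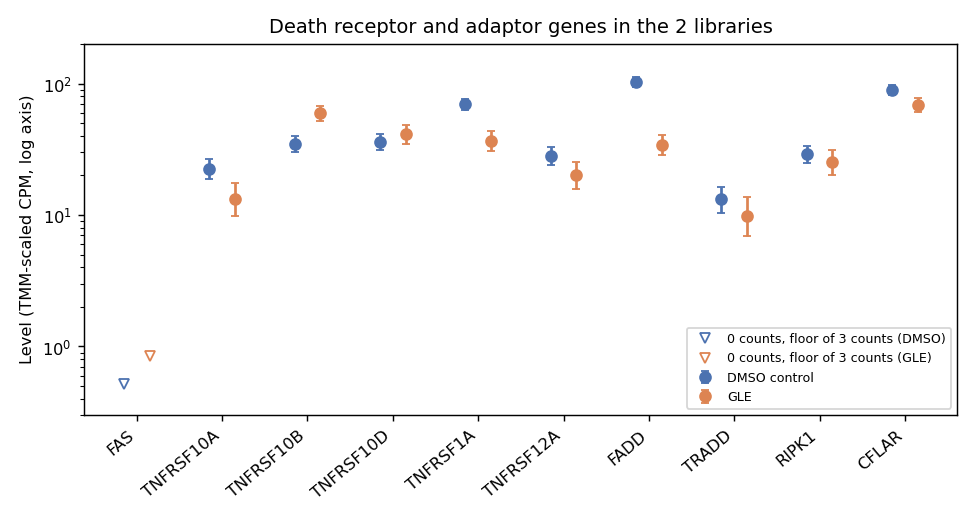
Level of each gene in the DMSO control library (blue) and the GLE library (orange), in TMM-scaled CPM, on a log axis. Bars are 95% counting intervals, and open triangles mark the floor of 3 counts where FAS had 0. FADD lies at 103 CPM in the control library and 34.2 CPM under GLE, and TNFRSF10B at 34.8 CPM and 59.4 CPM.

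FADD, the adaptor that links the death domains of receptors to CASP8, lies on chromosome 11 (70203296 to 70207390, GRCh38). It had 593 counts in the control library against 121 under GLE. Its level was 103 CPM (94.5 to 111) in the control library and 34.2 CPM (28.4 to 40.9) under GLE. These intervals do not overlap. The ratio was 0.333 (0.272 to 0.406), and its whole counting interval lay beyond 2-fold. Of all measured genes, 3.88% had a lower ratio. GENCODE places an antisense gene over the 3′ end of FADD, whose reads cannot be told apart without the strand setting.

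TRADD, the adaptor through which TNFRSF1A recruits RIPK1, lies on chromosome 16 (67154185 to 67159909). It had 76 control and 35 GLE counts, the fewest of the measured genes. Its level was 13.2 CPM (10.4 to 16.5) and 9.90 CPM (6.89 to 13.8), and the ratio of 0.753 had an interval of 0.489 to 1.14. RIPK1, the kinase that can serve survival or cell death signalling, lies on chromosome 6 (3063967 to 3115187). It had 167 control and 89 GLE counts, and its level was 28.9 CPM (24.7 to 33.6) and 25.2 CPM (20.2 to 31). Its ratio was 0.871 (0.666 to 1.13). No difference was detectable at this depth for TRADD or RIPK1, and the interval of TRADD reached below the ratio of TNFRSF1A.

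CFLAR, the gene of the caspase-8 inhibitor c-FLIP, lies on chromosome 2 (201116164 to 201176687). It had 516 control and 244 GLE counts. Its level was 89.3 CPM (81.8 to 97.4) in the control library and 69.0 CPM (60.6 to 78.2) under GLE, a 1.29-fold lower value (1.11 to 1.51). Its interval was narrower than that of TRADD, as CFLAR had 760 counts in all and TRADD 111. CASP8, the caspase it restrains, had 195 control and 98 GLE counts and a ratio of 0.821 (0.638 to 1.05).

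Among the receptors, TNFRSF1A was lower. The gene lies on chromosome 12 (6328771 to 6342076) and had 403 control and 130 GLE counts. Its level was 69.7 CPM (63.1 to 76.9) in the control library and 36.8 CPM (30.7 to 43.7) under GLE. The ratio was 0.527 (0.429 to 0.644), just short of 2-fold, and 12.1% of all measured genes had a lower one. TNFRSF12A, on chromosome 16 (3020368 to 3022383), had 163 counts in the control and 71 under GLE, or 28.2 CPM (24.0 to 32.9) and 20.1 CPM (15.7 to 25.3). It was 1.40-fold lower (1.06 to 1.88), and its level intervals overlapped. With a trend of ratio with transcript GC content removed, its ratio was 0.817 (0.610 to 1.09), an interval that includes 1.

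The TRAIL receptors lie beside one another on chromosome 8 and did not share a direction. TNFRSF10A, the receptor DR4 (23190452 to 23225102), had 130 control and 47 GLE counts. GENCODE places an exon of an antisense gene over its 3′ end too, and such reads cannot be told apart without the strand setting. Its level was 22.5 CPM (18.8 to 26.7) and 13.3 CPM (9.77 to 17.7), a 1.69-fold lower value (1.20 to 2.42). TNFRSF10B, the receptor DR5 (23020133 to 23069031), had 201 control counts and 210 GLE counts although the GLE library was the smaller. Its level was 34.8 CPM (30.1 to 39.9) in the control library and 59.4 CPM (51.6 to 68.0) under GLE, 1.71-fold higher (1.40 to 2.08). Of all measured genes, 86.2% had a lower ratio than TNFRSF10B.

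TNFRSF10D, the decoy DcR2 (23135588 to 23164027), had 207 control and 146 GLE counts, or 35.8 CPM (31.1 to 41.1) and 41.3 CPM (34.9 to 48.6). Its ratio was 1.15 (0.926 to 1.43), not detectably different from 1 at this depth. TNFRSF10C, the decoy without a cytoplasmic part, had 0 counts in both libraries. Related sequence could have split reads between these genes. The last 1000 bases of their coding transcripts in the GENCODE basic set were cut into windows of 31 bases, one starting at each base. TNFRSF10A and TNFRSF10B shared 6 windows and TNFRSF10B and TNFRSF10D shared 12, out of 970 to 1940 per gene. Such windows overlap, so those shared need not be separate stretches. TNFRSF10A and TNFRSF10D shared 0. RHOBTB2, which lies on the other strand with an exon at the annotated end of TNFRSF10B, had 17 control and 5 GLE counts.

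FAS, on chromosome 10 (88964050 to 89017059), had 0 counts in both libraries. A floor of 3 counts corresponds to 0.519 CPM in the control and 0.848 CPM under GLE, and the upper ends of its 95% counting intervals were 0.638 CPM and 1.04 CPM, so no fold is given. ACTA2, which overlaps FAS on the other strand away from its annotated 3′ end, had 3 control and 4 GLE counts. TNFRSF10A, TNFRSF10B, TNFRSF10D and TNFRSF1A were counted in both libraries, and the FAS transcript was not detectable at this depth. TNFRSF1B, another TNF receptor, had 4 control and 0 GLE counts.

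**Figure D2:**
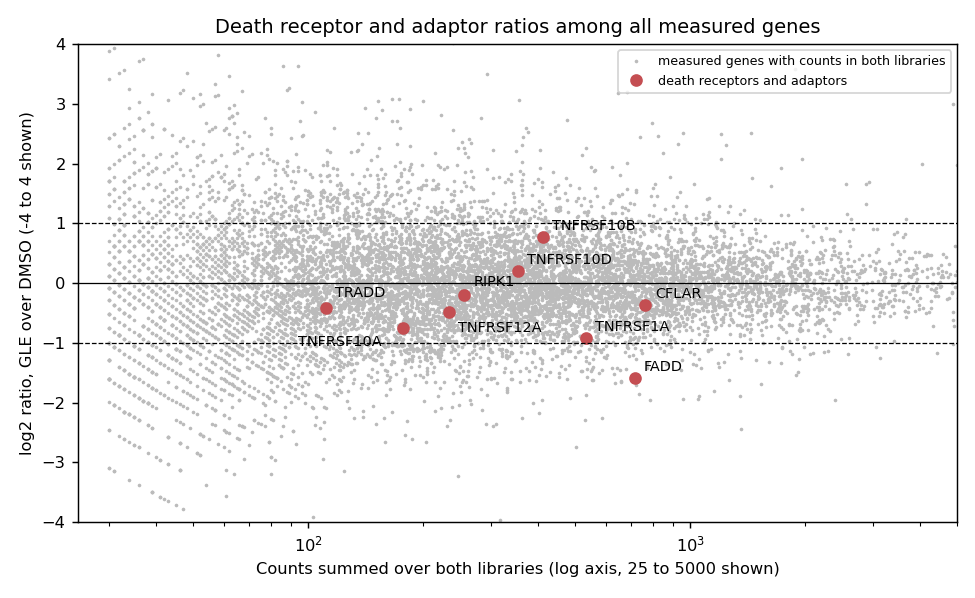
The log2 ratio of GLE over control against the counts summed over both libraries (log axis), with measured genes that have counts in both libraries and lie within the axes in grey and the 9 measured death receptor and adaptor genes in red. Dashed lines mark 2-fold. FADD is the red point below the lower line, and the other red points lie between the lines.

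The promoters of FADD and TNFRSF1A, the genes with the lowest ratios, are given because the counts of both were lower in the GLE library. They are RefSeq entries of GRCh38.p14, from 250 bases before to 50 after the annotated start. The table held promoters for 5 of the 10 genes, without TNFRSF10A, TNFRSF10B, TNFRSF10D, TNFRSF12A and TRADD. FADD is shown for chr11:70203046-70203345 on the plus strand and TNFRSF1A for chr12:6342027-6342326 on the minus strand. Capitals mark matches, on either strand, to the GC box GGGCGG and the core of the NRF1 motif GCATGCGC.
FADD promoter: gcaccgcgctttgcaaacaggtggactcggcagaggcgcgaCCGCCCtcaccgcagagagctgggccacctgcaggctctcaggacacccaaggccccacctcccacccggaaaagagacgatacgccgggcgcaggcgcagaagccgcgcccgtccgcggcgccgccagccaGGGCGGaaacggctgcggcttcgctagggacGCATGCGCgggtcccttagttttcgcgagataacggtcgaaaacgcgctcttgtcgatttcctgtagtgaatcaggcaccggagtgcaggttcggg
TNFRSF1A promoter: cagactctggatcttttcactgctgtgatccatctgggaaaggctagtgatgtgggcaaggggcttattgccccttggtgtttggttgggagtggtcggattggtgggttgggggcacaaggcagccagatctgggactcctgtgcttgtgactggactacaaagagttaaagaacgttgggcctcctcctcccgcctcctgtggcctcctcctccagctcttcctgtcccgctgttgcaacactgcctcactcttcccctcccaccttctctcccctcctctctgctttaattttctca
The FADD window held 2 GC boxes and 1 NRF1 core, and the TNFRSF1A window held none of these. The motifs overlapped none of the others in these windows. Of all 35116 promoters in the table, 45.0% held the GC box and 3.05% the NRF1 core. The AP-1 site TGAGTCA, held by 4.95% of promoters, and the TATA box TATAAA, held by 11.5%, were in neither window. GC content was 66.7% for FADD and 55.7% for TNFRSF1A, with 36 and 4 CG dinucleotides, against a median GC content of 58.7% over the table. The motifs were chosen after the sequences were seen, and a match shows only that the letters are there.

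Ratios of 2 genes within a library do not depend on how the libraries were scaled, and they give the size of the differences among these genes. FADD had the lowest GLE over control ratio of the 9, so every quotient over FADD is above 1 by construction. Each quotient is the ratio of the first gene, given above, divided by that of the second. It restates the same counts, and only its interval is new. Counts were not divided by transcript length, so only the quotient between libraries is read here, not the level of one gene against another. The count of TNFRSF10B over FADD was 0.339 in the control against 1.74 under GLE, a quotient of 5.12 (exact conditional 95% interval 3.85 to 6.81). CFLAR over FADD was 0.870 and 2.02, a quotient of 2.32 (1.80 to 3.0). FADD over CASP8 was 3.04 in the control against 1.23 under GLE, a quotient of 0.406 (0.294 to 0.562).

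For the inhibitor and the caspase it restrains, CFLAR over CASP8 was 2.65 in the control against 2.49 under GLE. That quotient was 0.941, with an interval of 0.700 to 1.27 that allows a shift in either direction. RIPK1 over TRADD had a quotient of 1.16 (0.702 to 1.93). TNFRSF10B had the highest ratio of the 9, so the direction of its quotients is likewise given. TNFRSF10B over TNFRSF10A was 1.55 in the control against 4.47 under GLE, a quotient of 2.89 (1.94 to 4.35). TNFRSF10B over the decoy TNFRSF10D was 0.971 and 1.44, a quotient of 1.48 (1.10 to 1.99). Of the 4 pairs without FADD, the interval of the quotient excluded 1 for 2, and the 9 pairs with FADD share its counts. The quotient of FAS over FADD could not be formed.

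**Figure D3:**
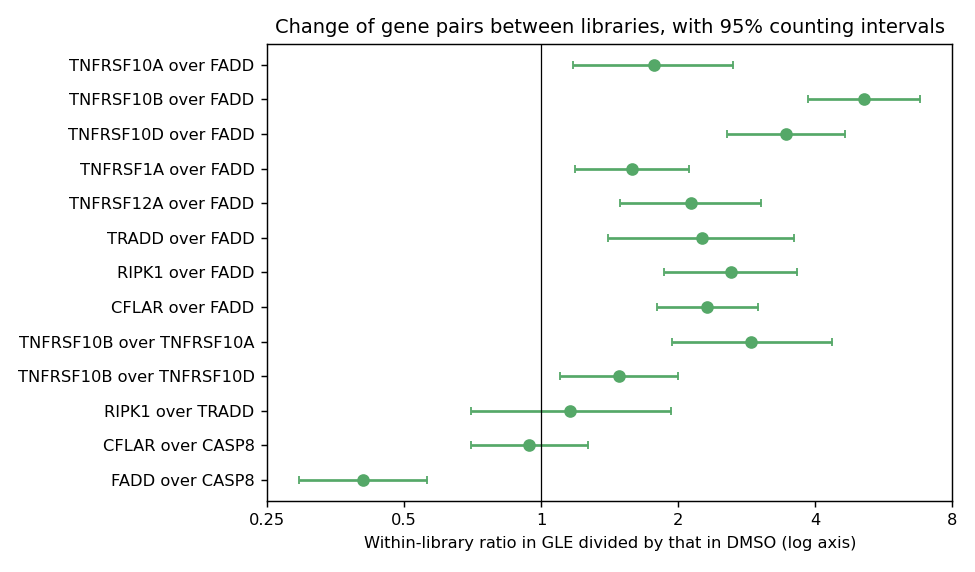
For 13 gene pairs, the ratio of the first gene to the second in the GLE library divided by the same ratio in the control (points, log axis), with exact conditional 95% intervals (bars). The 8 pairs over FADD lie to the right of 1, RIPK1 over TRADD and CFLAR over CASP8 span 1, and FADD over CASP8 lies at 0.406.

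The ligands of these receptors were thinly counted. FASLG, the ligand of FAS, had 0 counts in both libraries. TNF had 2 counts under GLE against 18 in the control, at a ratio of 0.182 (0.0204 to 0.758), and TNFSF10, which encodes TRAIL, had 23 and 2, a ratio of 0.142 (0.0162 to 0.575). TNFSF12, which encodes TWEAK, had 8 control counts and 1 GLE count, with an interval that includes 1 (0.00460 to 1.52). LTA, the lymphotoxin that also binds TNFRSF1A, had 0 control and 25 GLE counts, 13.6-fold higher when set against a floor of 3 counts in the control library. The lower end of its counting interval, which also takes in the error of the GLE count, was 10.3. These 5 ligands were under the minimum of 30 counts and are named, with their values seen, because they bind the receptors described. Of 19 ligand genes of the family, 4 were measured, and a difference of 2-fold or more was found upward for 1 and downward for 0, beside 9.54% and 10.5% of all measured genes. TNFSF13B, the B-cell factor BAFF, had a ratio of 2.83 (1.77 to 4.6), TNFSF4 1.81 (1.27 to 2.58), LTB 0.735 (0.644 to 0.837) and TNFSF9 0.964 (0.620 to 1.48).

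Other receptors of the family lay on both sides. Of 23 genes, 9 were measured, and differences of 2-fold or more were found upward for 2 and downward for 1, where all measured genes gave 9.54% and 10.5%. TNFRSF11B, the soluble decoy osteoprotegerin that can bind TRAIL, had 61 control and 10 GLE counts and was 3.73-fold lower (1.90 to 8.17). RELT was 3.73-fold higher (2.29 to 6.22), TNFRSF19 4.36-fold higher (1.96 to 10.7), and TNFRSF14 1.66-fold lower (1.09 to 2.59).

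Downstream, 26 of 28 genes grouped around the membrane complex that carries the signal to NF-kB were measured. The group is broader than the complex and also holds kinases such as MAP3K14 and MAPKAPK2. Differences of 2-fold or more were found upward for 1 and downward for 3, with a median log2 ratio of 0.08. Against 9.54% and 10.5% of all measured genes, the downward count is near the background. Intervals were wholly above 1 for 9 genes and wholly below 1 for 7, where all measured genes gave 27.7% and 30.1%. BIRC3, the ubiquitin ligase cIAP2 and itself an NF-kB target, was 2.19-fold lower (1.90 to 2.54). The kinase gene IKBKE was 2.61-fold lower (1.82 to 3.85), and TRAF5, an adaptor of the family, had 40 counts in the control and 2 under GLE, at a ratio of 0.0817 (0.00957 to 0.315). TAB2, which binds ubiquitin chains for the kinase TAK1, was 2.02-fold higher (1.58 to 2.60). IKBKG had 2 counts in each library and has a near-identical pseudogene copy.

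Of 16 measured genes grouped as brakes on receptor signalling, 4 had a ratio of at least 2 and 1 a ratio of 0.5 or less, and the median log2 ratio was 0.19. The shares over all measured genes were 9.54% and 10.5%. Intervals were wholly above 1 for 8 genes and wholly below 1 for 2, beside 27.7% and 30.1% of all measured genes. CYLD, a deubiquitinase that removes chains from RIPK1, was 2.83-fold higher (1.97 to 4.12), and OTUD7B, another deubiquitinase, 2.42-fold higher (2.0 to 2.94). PEA15, which has a death effector domain and can bind FADD, was 2.06-fold higher (1.73 to 2.45). DEDD2, a nuclear protein with a death effector domain that is not known as a brake on receptors, was 3.10-fold higher (2.56 to 3.76).

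Of 16 measured caspases and other effectors, 1 had a ratio of 0.5 or less and 0 had a ratio of at least 2, with a median log2 ratio of -0.28. All measured genes gave 10.5% and 9.54%, so the downward count is near the background. Intervals were wholly below 1 for 6 genes and wholly above 1 for 3, beside 30.1% and 27.7% of all measured genes. PIDD1, a death domain protein that activates CASP2, was 2.49-fold lower (1.37 to 4.84), CASP2 1.81-fold lower (1.46 to 2.26) and DFFA, the inhibitor of the apoptotic nuclease, 1.79-fold lower (1.48 to 2.17). CASP8AP2, named for its binding to CASP8, was 1.65-fold higher (1.44 to 1.88). RIPK3, the kinase of necroptosis that acts with RIPK1, had 0 counts in both libraries. MLKL, the membrane effector of necroptosis, had 24 control and 2 GLE counts, under the minimum of 30, and is named after its values were seen.

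**Figure D4:**
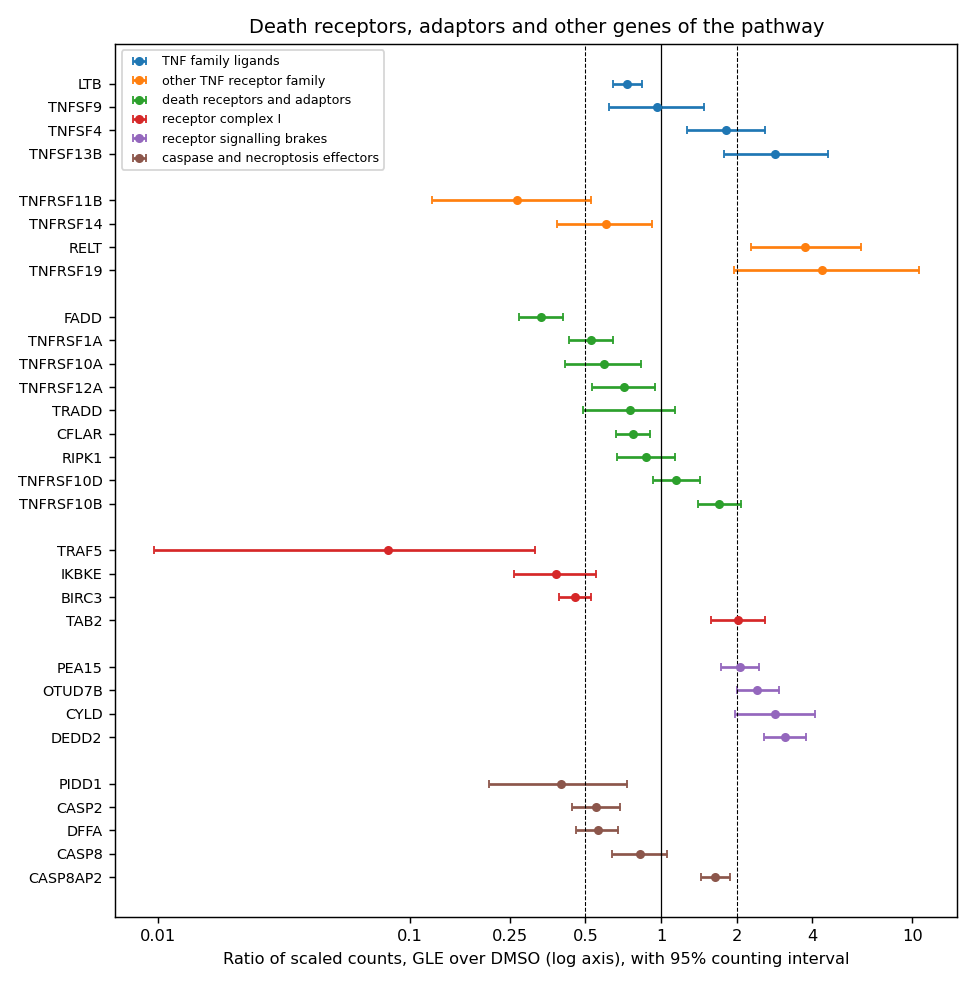
Ratio of scaled counts, GLE over control (points, log axis), with 95% counting intervals (bars), for the 9 measured death receptor and adaptor genes and the genes named from 5 lists of the pathway, coloured by list. Dashed lines mark 2-fold in either direction. FADD, TNFRSF11B, TRAF5, IKBKE, BIRC3 and PIDD1 lie left of the lower line, and DEDD2, CYLD, OTUD7B, PEA15, TAB2, RELT, TNFRSF19 and TNFSF13B right of the upper one.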

How the data were processed

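Each library's file, as the authors deposited it, lists whole-number read counts by gene symbol without normalization. Per the submitters' processing notes, the tools were fastp, STAR and HTSeq, on GRCh38. The libraries were made from 500 ng of total RNA with a Lexogen QuantSeq kit, per the labels' protocols. No source used here gives their versions, the gene annotation or the strand setting, so reads of antisense genes cannot be told apart.

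Counts were scaled over the whole table with TMM factors (trimmed mean of M-values; edgeR 4.0.16, R 4.3.3), which were 1.03 for the control and 0.972 for GLE. Intervals are exact Clopper-Pearson 95% intervals of the GLE share turned into a ratio, and conditional intervals of the odds ratio for pairs (SciPy 1.17.1). Reads carry no molecular identifiers here, so intervals and floors cover counting error only. The computation was tested on simulated data. DESeq2 1.42.0 size factors and other settings were tried, as given at the end. From each list, up to 4 measured genes were named, those with the largest cautious ratio in either direction. The cautious ratio is the interval bound nearest to 1. These genes were thus picked by value and are not typical of their lists. CASP8 was named whatever its value. The genes and lists were chosen with earlier results of these data known. 1 gene of the immune marker list is not reported here.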

Additional observations from a re-analysis of the deposited data

How the results depend on the processing

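Across 9 other settings of scaling or added count, all 81 ratios of the 9 measured genes stayed within the counting interval of the value reported, and none changed direction among genes whose interval excluded 1. FADD ranged from 0.315 to 0.370, TNFRSF1A from 0.498 to 0.579 and TNFRSF10B from 1.61 to 1.78. TRADD, which has a wide interval, ranged from 0.712 to 0.968. Scaling by total counts gave 2 genes at least 2-fold lower in place of 1, since TNFRSF1A was then at 0.498. A criterion of 1.5-fold gave 3 lower genes and 1 higher. The share of all genes at least 2-fold lower was 6.91% with a minimum of 100 counts. Removing a trend of ratio with mean level moved the median log2 ratio of all measured genes by 0.22, and TRADD was then at 0.968. Scaling by total counts moved that median by -0.08 and the other scalings by less. Ratios thus had little room to leave their intervals under most settings. Removal of a GC trend, chosen after seeing the data, left 4 intervals below 1. At this depth FAS had no count in either library, and TRADD had 111 counts in all. No paired analysis was possible because each group has 1 library.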

Other observations

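The neighbours of FADD on chromosome 11 lay on both sides of 1. Taking the 2 nearest measured genes on each side by RefSeq order, CCND1, the cyclin of early G1, had 361 control and 119 GLE counts and a ratio of 0.539 (0.434 to 0.664). LTO1 had a ratio of 0.940 (0.639 to 1.37), PPFIA1 of 1.30 (1.21 to 1.39) and CTTN, which encodes the actin-binding cortactin, of 0.809 (0.756 to 0.865). All 4 ratios were above that of FADD, but only 3.88% of all measured genes had a lower ratio than FADD.

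Beside the TRAIL receptors on chromosome 8, CHMP7, a gene of membrane remodelling, had 17 counts in the control and 33 under GLE, at a ratio of 3.17 (1.72 to 6.07), and R3HCC1 a ratio of 1.47 (1.13 to 1.90). On the other side, CCAR2 and BIN3 had ratios of 1.15 (0.772 to 1.69) and 0.980 (0.515 to 1.82). Beside CFLAR on chromosome 2, HYCC2 had a ratio of 2.89 (2.21 to 3.81), NDUFB3, a subunit of respiratory complex I, of 1.5 (1.26 to 1.78) and the caspase gene CASP10 of 1.31 (0.882 to 1.94). CASP8 was the fourth neighbour, at 0.821 (0.638 to 1.05). Beside TNFRSF1A on chromosome 12, ANO2 had a ratio of 0.602 (0.376 to 0.940). The intervals of PLEKHG6, LTBR and TAPBPL there included 1. Beside TNFRSF12A on chromosome 16, PAQR4 had a ratio of 0.337 (0.197 to 0.549) and PKMYT1 of 1.63 (1.29 to 2.06). The intervals of HCFC1R1 and THOC6 there included 1. Neighbours of TRADD, RIPK1 and FAS are not described.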
